A study of Mus musculus with 2 samples.

Results

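The gelsolin family of actin-severing and actin-capping proteins was followed through mouse bone marrow cells on a pair of arrays, 1 labelled Satb1 and 1 labelled GFP. The 7 genes are Scin, Gsn, Capg, Flii, Svil, Vil1 and Avil, of 18193 genes on the array. They were chosen by name, as all probe sets whose platform annotation gives 1 of these symbols alone, which gave 16 of 45037 probe sets. The family was picked with the difference in Scin between the arrays already known, so its values describe these 2 arrays and carry no test.

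Both arrays held RNA of wild-type C57BL6J marrow cells described as LSK Flt3-, a stem cell-rich fraction that lacks lineage markers and Flt3 and carries Sca-1 and high c-Kit. The cells on the array labelled Satb1 had been transduced with Satb1, whose nuclear protein attaches to AT-rich stretches of DNA and shapes chromatin loops. The cells on the array labelled GFP had been transduced with GFP and are the control. Each array received labelled cRNA made from 250 ng of total RNA, and the sources used here do not give the number of animals or cultures pooled for it. With 1 array per group there is no replicate spread, and no standard error or p-value is given for any difference.

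Gelsolin-type proteins are built from repeats of a shared domain that binds actin and calcium. Severing members wedge into a filament, break it, and stay on the fast-growing end as a cap, and calcium switches many of them on. Blood cells use them to remodel the cortical actin mesh under the membrane during migration, secretion and platelet formation.

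Values are MAS5 intensities, the Affymetrix summary of a probe set on a linear scale. Intensities under 61.7, the median over the whole table, were raised to that floor before a log2 difference was taken, since such low readings are mostly noise. A fold that uses a floored value is a lower bound. Each gene is represented by its brightest probe set, and a gene was counted where its floored values were at least 2-fold apart. Of 11048 genes above the floor on at least 1 array, 0.860% were counted as lower on the array labelled Satb1 (95 genes) and 0.272% as higher (30 genes). After quantile normalization that split was 60 lower and 54 higher. The median log2 difference of these genes was -0.02.

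The labels were checked on the genes that define the arrays. Satb1 RNA itself was no higher where Satb1 had been introduced: its brightest probe set read 909 on the array labelled Satb1 and 1116 on the array labelled GFP, and the other probe sets with both readings over the floor were also lower. The sources used here do not give the transduced part of Satb1, so a probe set outside it would check nothing, and all directions rest on the labels. Where readings are given below as "with Satb1" and "with GFP", the array so labelled is meant. Kit, the gene of c-Kit, read 3388 on the array labelled Satb1 and 3293 on the array labelled GFP. Transcript of Flt3 was detected in this fraction, with 1334 on the array labelled Satb1 and 1390 on the array labelled GFP, and the Sca-1 gene was not analysed here. Surface protein was not measured.

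Scin was the member that stood apart. Scin encodes scinderin, also called adseverin, a calcium-dependent severing protein known from secretory cells, where it takes down cortical actin, and from megakaryocytes. Its only probe set (1450276_a_at) read 3827 on the array labelled Satb1 and 15617 on the array labelled GFP. This is a 4.08-fold lower level and a log2 difference of -2.03, and neither reading was near the floor. The probe set was brighter than 95.3% of all probe sets on the array labelled Satb1 and than 99.3% on the array labelled GFP, so that Scin remained a bright gene on both. Scin had the difference ranked 4 from the lowest among the 11048 genes.

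No other gene of similar brightness was as far below the control array. Of 1114 non-member genes whose mean log2 intensity lay within 1 of that of Scin, 0 were at least 2-fold lower (0.00%) and 1 was at least 2-fold higher, S100a8, with a log2 difference of 1.71. Their log2 differences had an SD of 0.16 across genes, which are not replicates, and the lowest was -0.75. No second probe set named Scin was among those analysed, so its difference could not be compared between probe sets. The suffix of its ID marks a design shared by several transcripts of 1 gene, so isoforms of Scin cannot be told apart.

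Within the same brightness range and above the floor on both arrays, the genes nearest to Scin in log2 difference were Osbpl8, Anxa5, Kif22, Pan3 and Arglu1. Their log2 differences were -0.75, -0.74, -0.71, -0.56 and -0.55. Osbpl8 read 3634 on the array labelled Satb1 and 6104 on the array labelled GFP, and Anxa5 read 3051 with Satb1 and 5113 with GFP. Even the nearest of them differed from Scin by 1.28 on the log2 scale. Scin was picked with its difference known, so this gap carries no test. Dimmer genes outside this brightness range had larger differences, among them Ms4a3 (-3.28) and Fcer1a (-2.60), or differences of like size, among them Gzmb (-1.85), Nkg7 (-1.82) and Mcpt8 (-1.68).

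**Figure D1:**
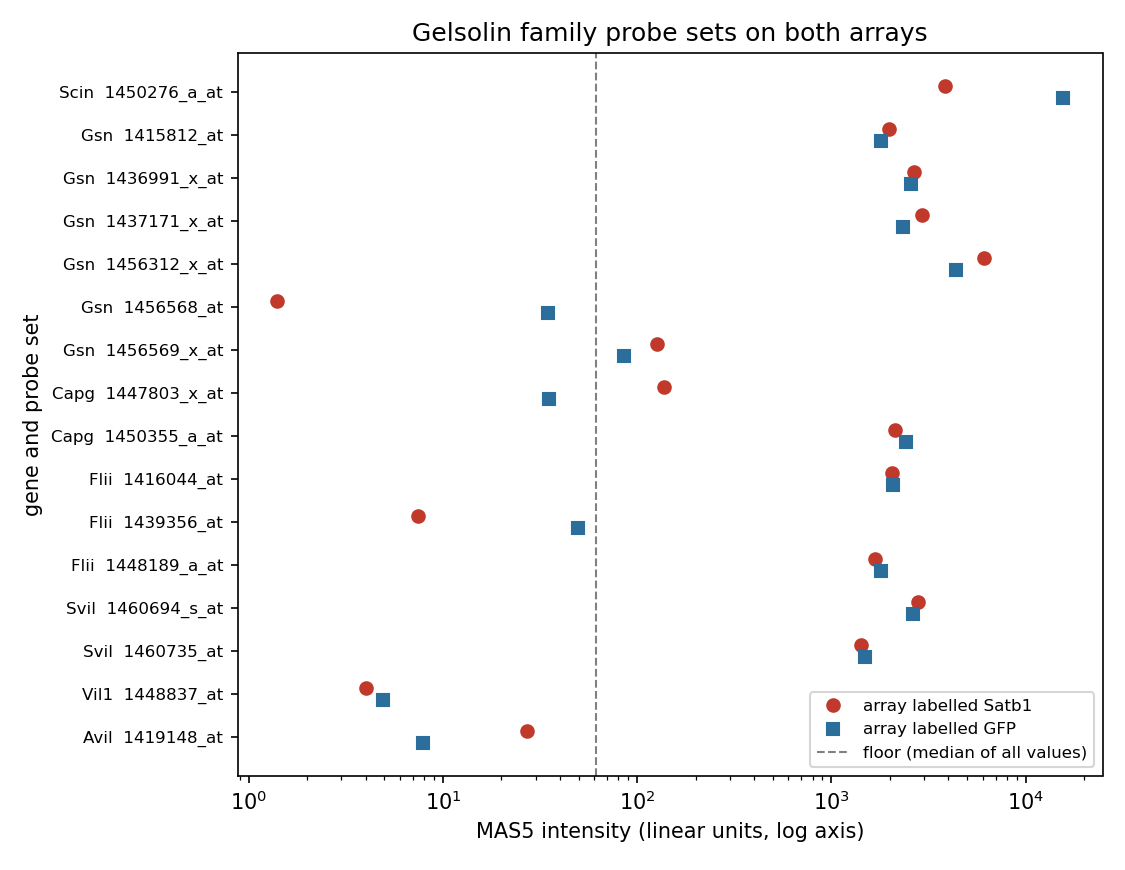
MAS5 intensity (log axis) of the 16 gelsolin family probe sets on the array labelled Satb1 (red circles) and the array labelled GFP (blue squares), with the floor of 61.7 as a dashed line. Scin reads 3827 on the array labelled Satb1 and 15617 on the array labelled GFP, while the other probe sets over 1000 lie close together on both arrays, and those of Vil1 and Avil lie below the floor.

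The sequences before the annotated starts of Scin, Gsn and Capg are shown because Scin is the member that differed and the other two are severing and capping members that were bright and within 2-fold. They are the 250 bases before the first annotated start in the promoter table of RefSeq, build GRCm38.p6, read 5′ to 3′ on the strand of the gene: chr12:40134229-40134478 (minus strand) for Scin, chr2:35256109-35256358 (plus strand) for Gsn and chr6:72549397-72549646 (plus strand) for Capg. Capitals mark the longest run made only of A and T.
Scin: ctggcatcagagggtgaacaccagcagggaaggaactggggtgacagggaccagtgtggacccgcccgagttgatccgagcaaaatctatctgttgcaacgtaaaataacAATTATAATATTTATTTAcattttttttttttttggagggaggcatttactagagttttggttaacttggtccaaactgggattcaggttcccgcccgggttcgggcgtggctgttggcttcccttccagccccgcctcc
Gsn: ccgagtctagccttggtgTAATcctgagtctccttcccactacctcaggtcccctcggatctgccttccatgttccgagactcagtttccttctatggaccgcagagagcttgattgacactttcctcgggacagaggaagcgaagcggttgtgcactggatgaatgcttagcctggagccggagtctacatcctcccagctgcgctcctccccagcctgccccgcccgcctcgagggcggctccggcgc
Capg: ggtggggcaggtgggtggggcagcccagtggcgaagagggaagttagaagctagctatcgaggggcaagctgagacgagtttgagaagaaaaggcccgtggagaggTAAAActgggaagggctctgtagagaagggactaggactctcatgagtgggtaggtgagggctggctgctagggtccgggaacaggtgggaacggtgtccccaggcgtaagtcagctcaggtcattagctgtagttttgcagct
The Scin sequence held a run of 18 A or T bases, from base -140 to base -123 before the start. A run at least this long was present in 3.24% of the 32841 promoters of the table, whose median longest run was 7 bases. The longest runs were 4 bases before the Gsn start shown and 5 bases before the Capg start. By total A and T content the Scin sequence was ordinary, at 50.8% against a median of 47.6% over all promoters, and Gsn and Capg had 39.2% and 42.4%. The other starts of the family with a sequence had longest runs between 5 and 12 bases, the highest being that of Avil.

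Among 3 motifs searched on both strands, the unwinding motif AATATATTT of matrix attachment regions was in 0.344% of all promoters and in none of the 8 starts of the 6 members with a promoter in the table. The box TATAAA was in 12.4% of promoters and in none of the 8. The GATA-type motif AGATAA was in 9.99% of promoters and, in the family, before Avil alone. These matches and absences describe letters in this window, and binding was not measured here.

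Gsn, the founding member of the family, leaned the other way from Scin. Gsn encodes gelsolin, which severs and caps filaments in the cytoplasm and is also secreted into plasma from an alternative form. Its brightest probe set (1456312_x_at) read 6080 on the array labelled Satb1 and 4399 on the array labelled GFP, a 1.38-fold higher level that did not reach the 2-fold count. For 1437171_x_at the reading was 2933 on the array labelled Satb1 and 2345 on the array labelled GFP. For 1436991_x_at the readings were 2656 with Satb1 and 2573 with GFP, and for 1415812_at they were 1988 with Satb1 and 1800 with GFP. All 4 probe sets over 1000 were thus higher on the array labelled Satb1, with log2 differences from 0.05 to 0.47.

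Their mean was 0.24 with an SD of 0.19 across the 4 probe sets, which share the same RNA and are not replicates. Across genes, probe sets of 1 gene were compared where both readings exceeded the floor and their mean intensities fell in the same range. The SD between them was 0.13 over 2000 (671 genes) and 0.19 from 500 to 2000 (1027 genes). Bright and dim probe sets of a gene in different ranges were not compared. Of the dim Gsn probe sets, 1456569_x_at read 127 on the array labelled Satb1 and 85.7 on the array labelled GFP, and 1456568_at read 1.4 with Satb1 and 34.9 with GFP, below the floor on both. The probe sets with the suffix x can match transcripts of other genes. The probe set without a suffix, 1415812_at, gave a log2 difference of 0.14, against 0.47 for the brightest.

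Capg, the capping protein of macrophages that caps filament ends without severing them, differed little by its bright probe set. That probe set (1450355_a_at) read 2115 on the array labelled Satb1 and 2419 on the array labelled GFP, a log2 difference of -0.19. A dim probe set (1447803_x_at) went the other way, at 138 on the array labelled Satb1 and 35.1 on the array labelled GFP, at least 2.23-fold higher. The probe sets of Capg therefore disagreed in direction, and the dim one is of the kind that can match other genes.

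Flii and Svil, the large members, were level between the arrays. Flii encodes flightless I, which joins gelsolin repeats to leucine-rich repeats and also acts with nuclear receptors. By 1416044_at, Flii had 2055 on the array labelled Satb1 and 2077 on the array labelled GFP, and by 1448189_a_at it had 1679 with Satb1 and 1804 with GFP. The log2 differences were -0.02 and -0.10. A further Flii probe set, 1439356_at, was below the floor on both arrays, at 7.4 with Satb1 and 49.7 with GFP. Svil encodes supervillin, a membrane-associated protein that binds actin and myosin II. By 1460694_s_at, Svil had 2784 on the array labelled Satb1 and 2636 on the array labelled GFP, and by 1460735_at it had 1423 with Satb1 and 1487 with GFP. Their log2 differences were 0.08 and -0.06, so that the sign of the Svil difference depended on the probe set.

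The villin-type members were not detected above the floor. Vil1 encodes villin, which bundles and severs actin in the brush border of intestine and kidney, and its probe set read 4.0 on the array labelled Satb1 and 4.9 on the array labelled GFP. Avil encodes advillin, known from sensory neurons, and its probe set read 27.0 on the array labelled Satb1 and 7.9 on the array labelled GFP. Readings this low have no order, and no fold is given for either gene.

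Across the family, 5 of the 7 genes were above the floor. Of these, 1 (20%) was at least 2-fold lower, 0 were at least 2-fold higher and 4 were within 2-fold. The share of 20% rests on Scin, the gene for which the family was picked, so nothing is read from it against the 0.860% of all genes. The median log2 difference of the 5 genes was -0.02, as it was over all genes above the floor. By probe set, 11 of 16 exceeded the floor on both arrays, 1 on 1 array and 4 on neither. Of the 16, 1 was counted as lower (Scin) and 1 as higher (the dim Capg probe set), while over 23685 probe sets above the floor 1.61% were lower and 0.325% higher.

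The brightness order within the family differed between the arrays. On the array labelled Satb1 the brightest probe set was that of Gsn (6080), followed by that of Scin (3827). On the array labelled GFP the Scin probe set (15617) was the brightest of the 16, ahead of the brightest of Gsn (4399). Intensities of different probe sets also depend on how well each binds, so this is an order of probe set brightness and not of transcript amount. A difference between arrays compares a probe set with itself, but it too can depend on the probe set. For Capg the log2 differences were -0.19 and, with a floored reading, 1.16. Scin had only 1 probe set, so this could not be checked for it. By the brightest probe set of each gene, the log2 difference of Scin minus that of Gsn was -2.50. The Gsn probe set used, with 0.47, had the highest difference of the 4 over 1000. Scaling a whole array by a factor leaves such a value as it is, and other effects of an array were not tested. Taken against Svil, Flii and Capg in the same way, the difference of Scin was -2.11, -2.01 and -1.84.

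**Figure D2:**
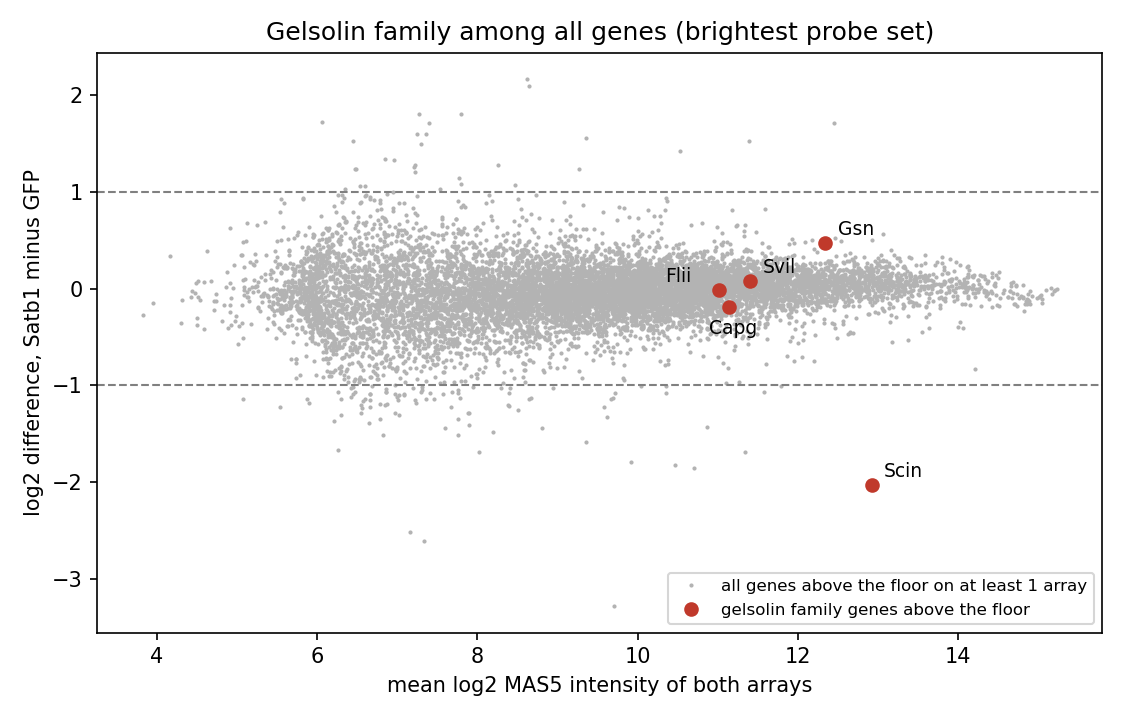
Log2 difference (Satb1 minus GFP) against mean log2 MAS5 intensity of both arrays for the brightest probe set of each of 11048 genes above the floor on at least 1 array (grey), with the 5 gelsolin family genes above the floor in red and dashed lines at 2-fold. Scin lies at -2.03, away from all genes of similar brightness, and Gsn (0.47), Svil (0.08), Flii (-0.02) and Capg (-0.19) lie within the lines.

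The other proteins that build, cut and cap actin filaments were then compared. Lists of such regulators held 110 genes, of which 99 were measured and 88 were above the floor. Of the 88, 0 were at least 2-fold apart, against 1.13% of all genes, a background so low that a count of 0 among 88 is close to it. At 1.5-fold, 3 of the 88 were apart (2 lower, Wasl and Limk1, and 1 higher, Tpm4), a share of 3.41% against 5.66% of all genes. The median log2 difference of the 88 was 0.07, against -0.02 over all genes, with 50 higher by some amount and 38 lower.

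The cofilin family, which also severs filaments but without calcium, was the closest in function to Scin. In the list of the cofilin family and its cofactors, 14 of 16 measured genes exceeded the floor, and all 14 were within 2-fold, with a median log2 difference of 0.07. Cfl1, the main cofilin gene of blood cells, read 17156 on the array labelled Satb1 and 19256 on the array labelled GFP by its brightest probe set, while a dimmer one went the other way. Coro1a, encoding the leukocyte coronin, read 14140 with Satb1 and 13680 with GFP. The largest differences in this list were those of Coro7, at 3157 on the array labelled Satb1 and 4600 on the array labelled GFP, and of the twinfilin gene Twf2, at 5423 with Satb1 and 4070 with GFP. All 6 Coro7 probe sets were lower on the array labelled Satb1.

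The kinases and phosphatases that switch cofilin were also within 2-fold, with all 10 measured genes above the floor. Their median log2 difference was -0.22, with 7 lower and 3 higher, and after quantile normalization it was -0.10. Limk1, a kinase that inactivates cofilin, read 568 on the array labelled Satb1 and 859 on the array labelled GFP, but a dimmer Limk1 probe set was higher, at 133 with Satb1 and 113 with GFP. Ssh3, of the slingshot phosphatases that reactivate cofilin, was dim at 82.4 with Satb1 and 119 with GFP. The brightest genes of this list, Rock1 (3333 on the array labelled Satb1 and 3123 on the array labelled GFP) and Pak2 (1580 with Satb1 and 1551 with GFP), were level.

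Filament end capping proteins had 11 of 15 measured genes above the floor, all within 2-fold, with a median log2 difference of 0.12. The capping protein subunit genes were level: Capza1 read 11570 on the array labelled Satb1 and 10810 on the array labelled GFP, and Capza2 read 9055 with Satb1 and 8615 with GFP. Carmil2, a regulator of capping protein, had the lowest log2 difference of this list at -0.31. The actins and monomer-binding proteins were the brightest group, and their 7 genes above the floor had a median of -0.04, or 0.03 after quantile normalization. Actg1, encoding cytoplasmic gamma-actin, read 26441 on the array labelled Satb1 and 25437 on the array labelled GFP, and the monomer-sequestering thymosin gene Tmsb4x read 30186 with Satb1 and 30720 with GFP. The profilin gene Pfn1 read 13381 with Satb1 and 11172 with GFP, and the dim smooth muscle actin gene Acta2 read 86.7 with Satb1 and 122 with GFP.

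Nucleators of new filaments were also level as a group. For the Arp2/3 complex, which starts branches, and its activators, 16 of 18 measured genes exceeded the floor, with a median log2 difference of 0.09. Arpc2 read 19350 on the array labelled Satb1 and 19465 on the array labelled GFP by its brightest probe set. A dimmer Arpc2 probe set read 232.5 with Satb1 and 431.9 with GFP, a log2 difference of -0.89. Actr3 read 14842 with Satb1 and 14028 with GFP. The activator gene Wasl, encoding N-WASP, had the lowest log2 difference of all 88 regulators at -0.92, from 653 on the array labelled Satb1 and 1236 on the array labelled GFP. The other Wasl probe sets above the floor did not share it, with log2 differences of 0.08 and 0.08. Wipf1, encoding a partner of the WASP protein, read 2930 with Satb1 and 2233 with GFP by its brightest probe set. Another Wipf1 probe set had a log2 difference of 0.05. Formins and Ena/VASP proteins, which lengthen unbranched filaments, had a median of 0.09 over 11 genes above the floor. Vasp read 4665 on the array labelled Satb1 and 4743 on the array labelled GFP, and Diaph1 read 4611 with Satb1 and 4089 with GFP, while Enah had the highest log2 difference of that list at 0.55 and Evl had 0.45, with another Evl probe set going the other way.

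Bundling, crosslinking and side binding proteins completed the set, with 18 of 18 measured genes above the floor and a median log2 difference of 0.12. The non-muscle myosin gene Myh9 read 14080 on the array labelled Satb1 and 15065 on the array labelled GFP, and the tropomyosin gene Tpm3 read 14051 with Satb1 and 12959 with GFP. Tpm4, a further tropomyosin, was 1.51-fold higher at 1261 with Satb1 and 836 with GFP, and Myh10 read 362 with Satb1 and 249 with GFP. The other villin and headpiece proteins, relatives of Vil1, were dim. Of their 4 measured genes, 3 were above the floor, with a median of -0.22, or -0.06 after quantile normalization. Vill, encoding the villin-like protein, read 309 on the array labelled Satb1 and 343 on the array labelled GFP. Ablim1, an actin-binding LIM protein gene, read 365 with Satb1 and 455 with GFP by its brightest probe set, with another going the other way, and Dmtn, encoding dematin, read 158 with Satb1 and 184 with GFP.

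**Figure D3:**
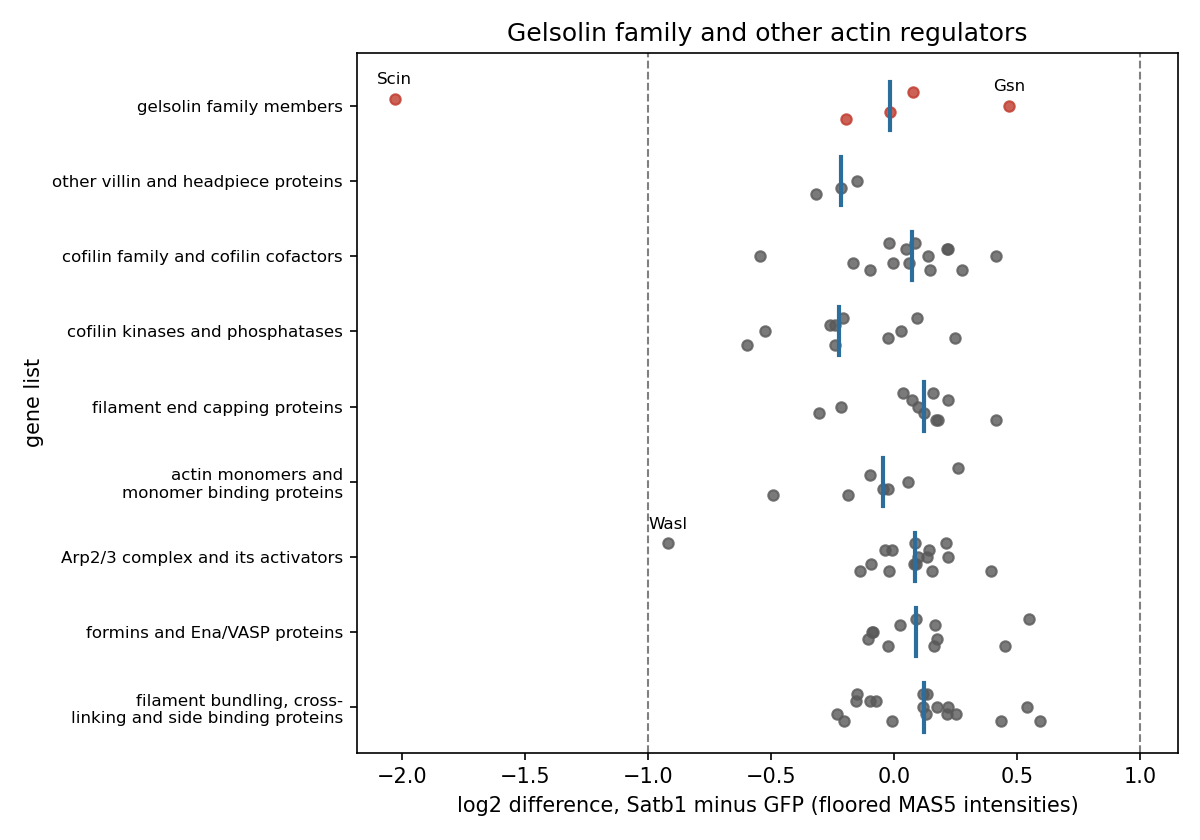
Log2 difference (Satb1 minus GFP) of the gelsolin family (red) and of 8 lists of other actin regulators (grey), 1 point per gene above the floor on at least 1 array, with the median of each list as a blue bar and dashed lines at 2-fold. Scin at -2.03 is the 1 point outside the lines, and the nearest regulator is Wasl at -0.92.

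Markers of blood lineages were read beside Scin, since the RNA came from a population. In such a population, fewer cells of a type and less RNA per cell cannot be told apart. The lists were chosen with earlier results of these data known, so their counts describe these arrays and carry no test. Over all genes above the floor, 0.860% were at least 2-fold lower and 0.272% were at least 2-fold higher. The list of mast cell, basophil and eosinophil markers held the most genes lower by 2-fold along with the lymphoid list: of 14 measured, 9 were above the floor, 3 were at least 2-fold lower and 1 was at least 2-fold higher. Fcer1a, the alpha chain of the IgE receptor, read 65.4 on the array labelled Satb1 and 397 on the array labelled GFP. The basophil protease gene Mcpt8 read 1449 with Satb1 and 4653 with GFP, and Ms4a2, the beta chain of the same receptor, read 560 with Satb1 and 1227 with GFP. Prg2, the major basic protein of eosinophils, went the other way, at 825 with Satb1 and 194 with GFP. Cpa3, the mast cell carboxypeptidase gene, was within 2-fold at 5347 with Satb1 and 7418 with GFP, and so was Csf2rb at 4245 with Satb1 and 3869 with GFP.

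The median log2 difference of this list above the floor was -0.75, or -0.47 with either other floor and -0.20 with none, and its summed intensity was 16250 on the array labelled Satb1 and 22241 on the array labelled GFP. The mast cell and eosinophil markers Mcpt4, Tpsab1, Tpsb2, Mrgprb1 and Epx stayed under the floor throughout. The part that such cells have in the Scin difference was not tested.

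Megakaryocyte and platelet markers, a lineage in which Scin is known, were all within 2-fold. Of 16 measured, 15 were above the floor, 12 higher by some amount and 3 lower, and the median log2 difference was 0.13. The lowest was Clec1b, a platelet lectin receptor gene, at 88.7 with Satb1 and 129 with GFP. Over all genes above the floor 1.13% were at least 2-fold apart. The absence of such genes here, and among the erythroid markers, is near that share, and nothing is read from it. The platelet chemokine genes Pf4 (21045 on the array labelled Satb1 and 19179 on the array labelled GFP) and Ppbp (3075 with Satb1 and 1753 with GFP) and the P-selectin gene Selp (1528 with Satb1 and 909 with GFP) were bright, and the transcription factor gene Nfe2 read 5754 with Satb1 and 5931 with GFP. Their summed intensity was 40854 on the array labelled Satb1 and 36021 on the array labelled GFP. The 5 erythroid markers above the floor, of 10 measured, were all within 2-fold, with a median of 0.29, or 0.43 after quantile normalization. Car2 (11142 with Satb1 and 9486 with GFP), Tfrc (5408 with Satb1 and 4523 with GFP), Gata1 (644 with Satb1 and 466 with GFP) and Klf1 (138 with Satb1 and 87.1 with GFP) were all higher by some amount, and the summed intensity of the list was 17597 with Satb1 and 14825 with GFP. Alas2, Hba-a1, Slc4a1, Car1 and Ermap were below the floor.

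Granulocyte and monocyte markers went both ways, with 5 at least 2-fold higher, 2 lower and 11 within 2-fold of 18 measured. The shares over all genes above the floor were 0.272% higher and 0.860% lower. The list had a median of 0.14, or -0.04 without probe sets of the suffixes x, s and a. Ms4a3, a gene of granulocyte and monocyte progenitors, read 269 on the array labelled Satb1 and 2609 on the array labelled GFP. Camp (834 with Satb1 and 187 with GFP), Ltf (306 with Satb1 and 93.2 with GFP) and S100a8 (10109 with Satb1 and 3094 with GFP), which encode products of maturing neutrophils, were higher, as were Lcn2 and S100a9. The other lower gene was the G-CSF receptor gene Csf3r, at 494 with Satb1 and 1239 with GFP. The primary granule genes were within 2-fold and went both ways: Mpo read 16452 with Satb1 and 18391 with GFP, Prtn3 read 12148 with Satb1 and 12209 with GFP, Ctsg read 8777 with Satb1 and 12716 with GFP, and Elane read 1320 with Satb1 and 799 with GFP. The summed intensity of the list was 72186 on the array labelled Satb1 and 67612 on the array labelled GFP.

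Of 15 lymphoid markers measured, 10 were below the floor throughout, among them Cd3e, Cd4, Cd79a and Ms4a1. The 3 that were at least 2-fold lower were the cytotoxic granule genes Gzmb (875 on the array labelled Satb1 and 3162 on the array labelled GFP) and Nkg7 (754 with Satb1 and 2667 with GFP) and the terminal transferase gene Dntt (80.1 with Satb1 and 195 with GFP). The summed intensity of this list was 2202 with Satb1 and 6520 with GFP, most of it from Gzmb and Nkg7 on both arrays. The list median over the 5 genes above the floor was -1.28, but between -1.84 and -0.30 under other floors. Of the stem cell markers, 12 of 12 measured were above the floor, with 1 at least 2-fold higher (Slamf1, at 233 with Satb1 and 95.7 with GFP by 1 of its 3 probe sets) and 1 lower (Fgd5, at 61.3 with Satb1 and 129 with GFP). The median of the stem cell list was -0.08, and Cd34 read 8197 with Satb1 and 8563 with GFP. Hoxa9 read 3262 with Satb1 and 4612 with GFP by its brightest probe set, while another Hoxa9 probe set had a log2 difference of -0.08. The summed intensity of the stem cell list was 25653 on the array labelled Satb1 and 27966 on the array labelled GFP. The part of any of these lineages in the Scin difference was not tested.

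**Figure D4:**
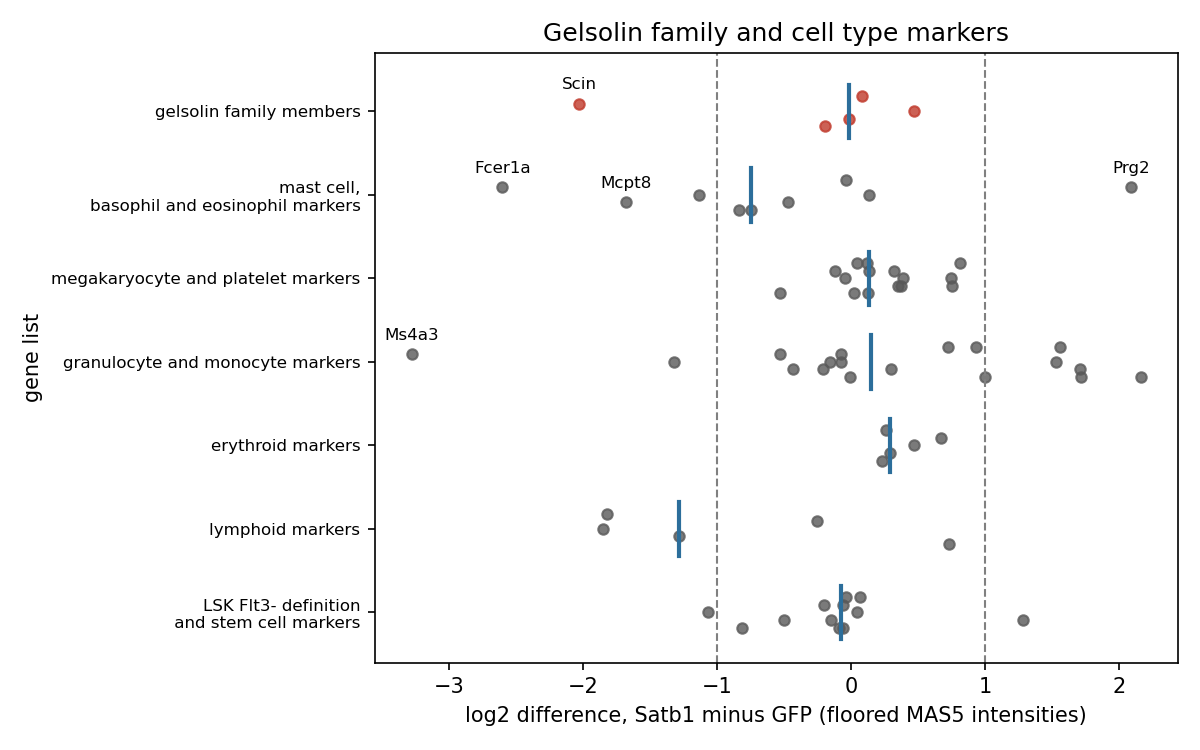
Log2 difference (Satb1 minus GFP) of the gelsolin family (red) and of 6 lists of cell type markers (grey), 1 point per gene above the floor on at least 1 array, with the median of each list as a blue bar and dashed lines at 2-fold. Ms4a3, Fcer1a, Gzmb, Nkg7, Mcpt8, Csf3r, Dntt, Ms4a2 and Fgd5 lie beyond 2-fold on the same side as Scin. Prg2, Slamf1 (1.28) and 5 granulocyte and monocyte markers led by Camp (2.16) lie beyond 2-fold on the other side. All megakaryocyte and erythroid markers shown lie within the lines.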

How the data were processed

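Gene expression was measured on 2 arrays, 1 for Satb1-transduced and 1 for GFP-transduced cells. The values the authors deposited are intensities made with MAS5, as the submitters' processing notes say. Its version and target value are not stated in these sources. Trimmed by 2% at either end, each array had a mean intensity of 497. Precision is limited by having 1 array per group.

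Symbols came from the platform annotation and were updated through Entrez gene IDs against the gene table of GRCm38.p6, which matched 34741 of 34945 probe sets with 1 symbol. The 932 probe sets with several symbols and the 9160 with none were not used. Values were floored at 61.7 and compared as log2 differences, Satb1 minus GFP, with the brightest probe set per gene. The members and 14 other gene lists were chosen with earlier results of these data known. The genes named are all members, up to 4 genes per list at 2-fold or more (otherwise the 2 with the largest difference), and the 2 brightest per list. Also named are the 5 genes nearest to Scin in log2 difference within 1 log2 of its mean intensity. Clec1b, Csf3r, Ctsg, Elane, Lcn2, S100a9 and the markers named as below the floor were named after their values were seen. The spread between probe sets of 1 gene was computed from those with both readings over the floor and mean intensities in the same range. The alternatives were other floors (25th and 75th percentile, none), quantile normalization, median centring, the mean over probe sets, the omission of probe sets with the suffixes x, s and a, and thresholds of 1.5-fold and 3-fold. Computations used Python 3.11.15 with pandas 2.3.3 and were tested on simulated data.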

Additional observations from a re-analysis of the deposited data

How the results depend on the processing

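The log2 difference of Scin was -2.06 after quantile normalization and -2.00 after median centring, against -2.03. Its only probe set read above every floor used, so the other floors and the mean over probe sets could not change it. Without probe sets of the suffixes x, s and a, no Scin or Capg probe set was left, so the count of members at least 2-fold lower was 0. It was 1, through Scin, under each other alternative. The count of members at least 2-fold higher was 0, except with no floor, where it was 1 through Avil, whose readings are both below the floor. The difference of Gsn stayed positive, between 0.14 and 0.49, and that of Capg was 0.48 with the mean over probe sets, against -0.19.

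Counts over all genes depended strongly on the settings. Genes at least 2-fold higher and lower numbered 440 and 787 when the floor was the 25th percentile, 5 and 18 when it was the 75th, 1472 and 1977 with no floor, 54 and 60 after quantile normalization, and 18 and 57 with the mean over probe sets. They numbered 193 and 432 at 1.5-fold and 9 and 10 at 3-fold. Medians of short lists also moved. The lymphoid median was -0.52 when the floor was the 25th percentile, -1.84 when it was the 75th, -0.30 with no floor and -0.94 with the mean over probe sets, and the erythroid median was 0.05 with no floor. No paired analysis was possible because each group has 1 array, and for the same reason no array could be left out.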
